A study of Mus musculus with 4 samples.

Results

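The immunity-related GTPases are interferon-inducible proteins that defend mouse cells against pathogens living inside membrane-bound vacuoles. The 4 genes described here, Irgm1, Irgm2, Igtp and Iigp1, were chosen by name from this family because Irgm1 had one of the largest rises in knockout against wild-type cells; a probe set, the group of array probes read as one value, was taken where the platform annotation lists a member symbol. This gave 3 of the 35556 probe sets on the array, 1 for Irgm1, 1 for Iigp1 and 1 listed with both Irgm2 and Igtp. Of the 4 members, 2 have a probe set of their own and 2 share one, so the values of Irgm2 and Igtp cannot be separated. The contrast that chose the genes is the only one in the study, and the members' differences are therefore given as descriptions without a test.

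Affymetrix Mouse Gene ST 1.1 arrays, 1 per sample, gave transcript levels in pluripotent mouse embryonic stem cells. The wild-type group (KAP_WT) has 2 samples labelled wild type, and the knockout group (KAP_KO) has 2 samples labelled KAP1 fl/fl, a line in which the gene of the co-repressor KAP1 (Trim28) can be deleted. All 4 samples carry the treatment label 4-OH-tamoxifen, a drug used to switch on conditional deletions; the protocol also names an ethanol vehicle, and which cells received it is not settled by the labels. All were grown on irradiated mouse embryonic fibroblasts. Which Cre construct was used, whether a line is 1 clone, and whether the wild-type cells are the parent line are not given in the sources used here; a difference between lines and the loss of Trim28 cannot be told apart. Values are log2 expression, with n = 2 samples per group. The samples are called biological replicates, but what separates them is not stated, so p-values measure the spread between these samples only.

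In resting cells most immunity-related GTPases are made at low levels. Interferon gamma, acting through its receptor and the kinases Jak1 and Jak2, switches them on, with Irf1 as a second-wave activator; type I interferons act through Tyk2, Jak1 and factors that include Stat2 and Irf9. The family has regulators and effectors. Irgm1, Irgm2 and Igtp (also called Irgm3) are regulators that sit on the cell's own membranes and hold the effectors inactive there, whereas Iigp1 (also called Irga6) is an effector that loads onto the vacuole of a parasite such as Toxoplasma and disrupts it. Irgm1 has also been linked to autophagy and to the survival of blood stem cells and lymphocytes.

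The promoters of the 3 regulator genes are shown because an interferon-type motif recurs in all 3 and because their probe sets differ between the groups. Each line holds the 120 bases that end just before the gene's start in RefSeq, GRCm38.p6, on chromosome 11, read 5′ to 3′ on the gene's strand: chr11:48871421-48871540 on the minus strand for Irgm1, chr11:58199436-58199555 on the plus strand for Igtp and chr11:58214857-58214976 on the plus strand for Irgm2. Capitals mark matches to either of 2 motifs. The first is GAAA, any 2 bases and GAAA again, a core of the interferon-stimulated response element (ISRE core); the other is TTCNNNGAA, a core of the gamma-activated site. Both strands were searched over the 250 bases before the start, and no match of one motif overlaps a match of the other in these 3 promoters.

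Irgm1: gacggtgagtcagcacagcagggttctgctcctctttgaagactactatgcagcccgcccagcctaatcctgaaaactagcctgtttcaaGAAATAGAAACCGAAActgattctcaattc

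Igtp: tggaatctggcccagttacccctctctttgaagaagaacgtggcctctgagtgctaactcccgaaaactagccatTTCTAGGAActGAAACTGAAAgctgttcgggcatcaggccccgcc

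Irgm2: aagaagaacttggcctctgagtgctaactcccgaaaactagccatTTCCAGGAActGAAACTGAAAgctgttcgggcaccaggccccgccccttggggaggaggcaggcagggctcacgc

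In Irgm1 the capitals are 2 overlapping matches to the ISRE core, the nearer ending 15 bases before the start, and its window has no match to TTCNNNGAA. Igtp and Irgm2 each have 1 match to either motif, in the same order and spacing, ending 25 and 37 bases before the start in Igtp and 55 and 67 bases before it in Irgm2. The Igtp and Irgm2 windows are close copies, with 197 of 214 aligned bases identical (92.1%). Irgm1 aligned with Igtp over only 48 bases, 41 of them identical. Of all 32851 promoter windows in the table, 2.98% hold the ISRE core, 7.02% hold TTCNNNGAA and 0.332% hold both. The 3 promoters were shown for their matches, so these shares are background only and do not measure enrichment in the members. A match describes these letters and does not show that a factor was bound. Of the 4 members, 3 have an entry in the promoter table; Iigp1 is not among them.

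The targeted gene, Trim28, read 11.29 and 11.37 in KAP_WT against 8.97 and 8.92 in KAP_KO (difference -2.38, SE 0.09, limma adjusted p = 3.39e-05); the labels do not say whether its probes lie in the deleted part. Over the whole array, 2676 of 18820 genes (14.2%) were higher and 2395 (12.7%) lower in the knockout at an adjusted p under 0.05. Subtracting each array's median over the tested genes, called array medians below, gave 2065 higher and 6392 lower. Those medians were 5.46 and 5.48 in KAP_WT against 5.66 and 5.63 in KAP_KO. Medians over all probe sets were closer, 4.76 and 4.75 against 4.76 and 4.77. No detection calls came with these arrays, so olfactory receptor genes, which are mostly silent outside the nose, were used as a reference for dim signal. The 990 such genes had values between 2.36 and 4.15 in the first wild-type sample (5th to 95th percentile), and their 95th percentile lay between 4.02 and 4.15 across the 4 samples. Of the 990, 2 were called higher and 18 lower in the knockout, with a largest rise of 2.91, so not every gene of this reference was unchanged. Pluripotency markers were bright in all samples, with 7 of 10 lower in the knockout (1 without wild-type replicate 1 or 2). Fibroblast markers, which the feeder cells would also give, rose in 14 of 19 and fell in 0. Their mean log2 level was 4.90 to 5.15 in KAP_WT against 6.32 to 6.34 in KAP_KO. The largest rises were Acta2 (4.65, limma adjusted p = 0.00191), Tagln (4.61, 3.59e-05) and Dcn (2.64, 0.00101), beside 4.43 for Irgm1. Acta2 was uneven in the wild type, at 6.78 and 4.64. Of the 19, 3 were within the range of the olfactory receptor genes in both wild-type samples, and 1 of them, Lum, in all 4. The fibroblast markers moved with Irgm1, the shared Irgm2 and Igtp set, the Tgtp sets, the guanylate-binding proteins and every other rise given here, in signalling, antigen presentation, type I and vacuole genes alike, and their part in those differences was not tested; in such bulk samples more cells of a type and more RNA per cell cannot be told apart. Of 11 immune cell markers, 0 were higher and 4 lower, and both counts changed when single samples were left out. The lower ones were Laptm5, bright at 10.03 in KAP_WT against 7.82 in KAP_KO (difference -2.22), Cd3e (-1.12), Cd68 (-0.56) and Cd14 (-0.34). The mean level of the 11 was 4.64 to 4.67 in KAP_WT against 4.22 to 4.28 in KAP_KO. Of the 11, 8 lay within the range of the olfactory receptor genes in every sample. Among these were Cd14 and also Ptprc, Adgre1 and Csf1r, which define blood cells and macrophages. Endothelial markers went both ways, with 4 of 8 higher and 2 lower (2 higher without wild-type replicate 1 or 2), at a mean level of 4.95 to 5.04 and 5.20 to 5.28.

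Irgm1, the regulator for which the set was chosen, read 3.68 and 3.84 in KAP_WT against 8.24 and 8.13 in KAP_KO. Both knockout samples were thus high and both wild-type samples low, with no overlap and a gap of 4.30 between the lowest knockout and the highest wild-type value. The means were 3.76 ± 0.11 and 8.19 ± 0.08 (SD, n = 2 each), a difference of 4.43 on the log2 scale, or 21.6-fold. This is rank 6 among the rises of the 18820 genes tested. Within a group, the samples differed by 0.16 (wild type) and 0.11 (knockout).

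The wild-type values of Irgm1 fall inside the range of the olfactory receptor genes, so its level there cannot be told from that of silent genes, and the 21.6-fold is a ratio of array values only. Its knockout values lie far above the range.

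The probe set shared by Irgm2 and Igtp read 4.29 and 4.24 in KAP_WT against 5.76 and 5.73 in KAP_KO. Again the knockout samples were the 2 higher ones, with a gap of 1.43 between the groups. The means of 4.26 ± 0.04 and 5.74 ± 0.02 (SD, n = 2 each) differ by 1.48 on the log2 scale, 2.78-fold. All 4 values lie above the 95th percentile of the olfactory receptor genes, in the wild type by little. How much of the difference belongs to Irgm2 and how much to Igtp is not resolved by this probe set.

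Iigp1, the effector, read 2.86 and 2.94 in KAP_WT against 3.02 and 3.02 in KAP_KO. Every value lies near the median of the olfactory receptor genes in the same samples, 2.90 to 3.02, so no signal above that dim reference was seen in either group. The means of 2.90 ± 0.05 and 3.02 ± 0.004 (SD, n = 2 each) differ by 0.12, and by -0.05 once each array's median over the tested genes is subtracted, so its sign depends on the scaling. Of the 5 accessions listed for this probe set, 2 are also listed for that of the neighbouring gene Gm4951, so the set may not read Iigp1 alone. Side by side, the regulator sets differed by 4.43 and 1.48 and the effector set by 0.12; the contrast between them was not tested.

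**Figure D1:**
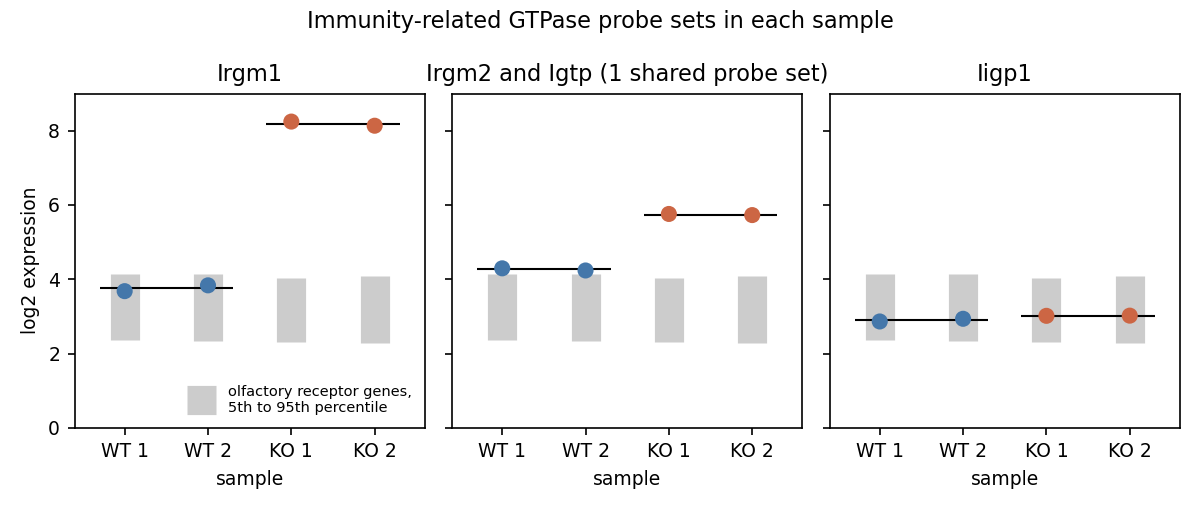
Log2 expression of the 3 member probe sets in each of the 4 samples; points are samples, black lines group means, and grey bars the 5th to 95th percentile of 990 olfactory receptor genes. Irgm1 goes from inside the grey range to above 8, the shared set of Irgm2 and Igtp from just above it to 5.7, and Iigp1 stays inside it.

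Of 14 further immunity-related and very large inducible GTPase genes listed, 6 had a probe set of their own, and 0 of these were called higher or lower, against 14.2% and 12.7% of all genes tested (median difference 0.01, against -0.05). Gm12250, which encodes the vacuole-attacking effector Irgb10 and lies next to the Irgm2 and Igtp locus, averaged 4.27 ± 0.42 in KAP_WT and 3.78 ± 0.28 in KAP_KO (SD). The difference of -0.49 (SE 0.21, limma adjusted p = 0.145) did not pass. It passed as lower with array medians subtracted (adjusted p = 0.0372) and with a replicate block (0.0187). Only the Gm12250 value in wild-type replicate 1, 4.57, lay above the range of the olfactory receptor genes. The differences of Gm5431 (-0.15, adjusted p = 0.593), Gm4951 (0.14, 0.527) and Gm4841 (0.13, 0.545) did not pass either, and these 3 genes stayed within the range of the olfactory receptor genes in every sample. A second, dimmer probe set of Gm4841 read 2.56 ± 0.14 and 3.04 ± 0.22 (difference 0.48, adjusted p = 0.0455 over every annotated probe set). Irgc1, a testis gene of the family that interferon does not induce, differed by -0.12 (adjusted p = 0.527), and Irgq, a relative with a degenerate GTP-binding site, by 0.16 (0.495). At an unadjusted limma p under 0.05, 0 of the 6 passed.

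Of the remaining listed genes, Tgtp1, Tgtp2, 9930111J21Rik1, 9930111J21Rik2, Gvin1 and Gm4070 occur on probe sets with several symbols, and F830016B08Rik and Gvin2 had no annotated probe set and were not analysed here. The sets with several symbols entered a fit over every annotated probe set, where 13.3% were called higher and 11.7% lower. Of 7 such sets with a listed gene, 2 were higher, both listed with Tgtp1 and Tgtp2. These near-identical genes encode the effector Irgb6. One set read 4.11 and 4.03 in KAP_WT against 5.17 and 4.90 in KAP_KO, the other 4.22 and 4.12 against 5.29 and 5.01. The differences were 0.96 (SE 0.12, limma adjusted p = 0.00196) and 0.98 (SE 0.12, adjusted p = 0.00200), and the groups did not overlap on either set. Both sets read the same pair of genes and are not independent. The sets with 9930111J21Rik1 and 9930111J21Rik2 differed by -0.07 and -0.04 (adjusted p = 0.653 and 0.788), and those with the very large GTPase gene Gvin1 and its copies by -0.27 to -0.11 (0.323 to 0.409). Among the effectors, the Tgtp sets rose from values near the upper edge of the dim range. Gm12250 did not pass and was in that range in all samples but wild-type replicate 1, and Iigp1 remained in it throughout. Differences between these genes were not tested.

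The guanylate-binding proteins, a sister family of interferon-inducible GTPases that also targets pathogen vacuoles, had 5 of 7 measured genes higher and 0 lower, with a median difference of 1.90. All 5 rose at least 2-fold, as did 4.44% of all genes tested, while 1.46% fell as much; all 7 were within the range of the olfactory receptor genes in both wild-type samples. Gbp2 went from 3.47 ± 0.05 to 9.37 ± 0.01 (difference 5.90, SE 0.09, adjusted p = 2.22e-06). Gbp3 rose by 3.06, Gbp4 by 1.96, Gbp7 by 1.90 and Gbp9 by 1.15. Gbp5 stayed inside that range in the knockout too (group means 2.95 and 2.89), and Gbp8 differed by 0.35 (adjusted p = 0.106). Of the 3 sets with several symbols, the one listed with Gbp6, Gbp10 and Gbp11 rose by 1.37 (adjusted p = 2.40e-04). The one with Gbp6 and Gbp11 rose by 0.70 (0.00774), and the one with Gbp5 and Gbp2b differed by -0.03 (0.869). The latter 2 sets stayed within the range of the olfactory receptor genes in every sample, and the first in both wild-type samples. The ISRE core occurs in 5 of the 5 guanylate-binding protein genes with a promoter entry, Gbp5 included, or 5 of their 6 windows. It occurs in 3 of 7 such genes among the other immunity-related GTPases, namely Tgtp1, Tgtp2 and Gm12250, all of which also have TTCNNNGAA. Among the lists described below, it is in 7 of 22 type I windows and 2 of 12 interferon gamma target windows. For signalling it is in 3 of 23 windows and for vacuole genes in 0 of 11, against 2.98% of all windows. Whether the motif goes with a rise was not tested.

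**Figure D2:**
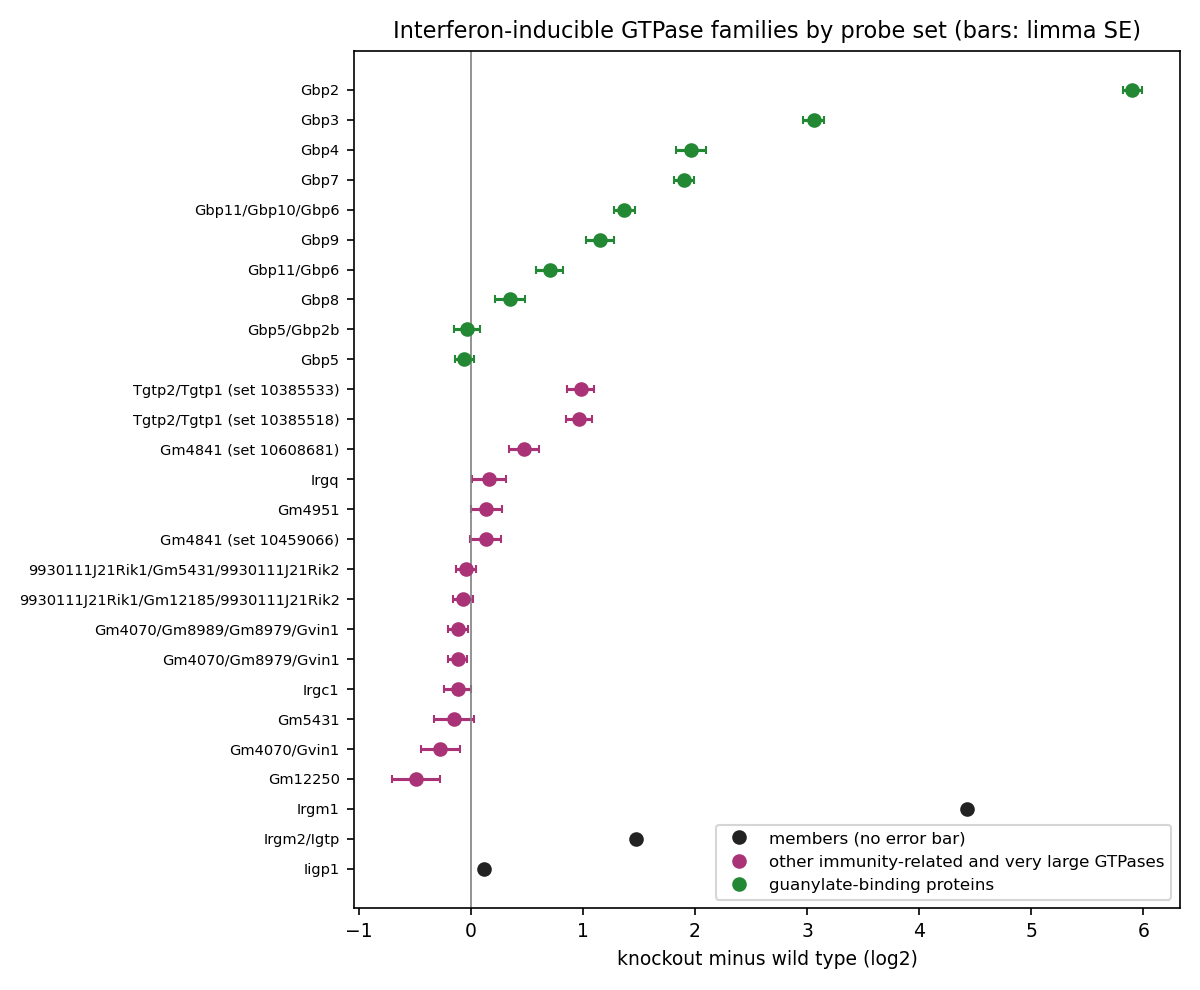
Knockout minus wild-type difference on the log2 scale for each probe set of the members (black, no test), the other immunity-related and very large GTPases (purple) and the guanylate-binding proteins (green); bars are limma standard errors over every annotated probe set. Irgm1 at 4.43 lies below Gbp2 at 5.90 and above the other sets, and most purple sets lie near 0.

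Of the interferon ligands, Ifng and Ifnb1 were read, and neither passed the test. Ifng, the interferon gamma gene, read 3.79 and 3.82 in KAP_WT against 3.81 and 3.82 in KAP_KO, a difference of 0.01 (95% confidence interval -0.20 to 0.22, adjusted p = 0.946), and Ifnb1 one of -0.08 (-0.48 to 0.32, adjusted p = 0.779). Both lie within the range of the olfactory receptor genes in every sample. Both chains of the interferon gamma receptor were higher. Ifngr2, the signalling chain of the interferon gamma receptor, rose from 6.78 ± 0.10 to 8.09 ± 0.003 (difference 1.31, SE 0.10, adjusted p = 2.23e-04), and Ifngr1, its ligand-binding chain, from 6.16 and 6.01 to 6.91 and 7.09 (difference 0.92, SE 0.11, adjusted p = 0.00136). For type I interferon, Ifnar1 rose by 0.66 (adjusted p = 0.0124), while Ifnar2 differed by 0.06 (0.696).

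Among the kinases, Jak2, which docks on Ifngr2, read 4.78 and 4.28 in KAP_WT against 6.27 and 6.48 in KAP_KO. It rose by 1.85 (SE 0.17, adjusted p = 5.70e-04), with no overlap between groups. Jak1 differed by 0.15 (adjusted p = 0.298), and Tyk2, the kinase of the type I receptor, fell by 0.68 (adjusted p = 0.00223).

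Irf1, the second-wave activator, read 7.08 and 7.20 in KAP_WT against 9.03 and 9.21 in KAP_KO. It rose by 1.98 (SE 0.11, adjusted p = 8.62e-05); a second, dimmer Irf1 probe set differed by 0.41 (adjusted p = 0.0678 over every annotated probe set). Irf2, which binds the same sites, rose by 1.84 (adjusted p = 8.72e-05) from wild-type values of 3.56 and 3.68, within the range of the olfactory receptor genes. Of the type I factors, Irf9 rose by 0.46 (adjusted p = 0.0132) and Stat2 fell by 0.38 (0.0402). Neither call was firm, since Stat2 lost its call when any 1 of the 4 samples was left out (adjusted p = 0.0598 to 0.184) and Irf9 without wild-type replicate 1 (0.0857), wild-type replicate 2 (0.0551) or knockout replicate 1 (0.0520). Of the feedback inhibitors, Usp18, a brake on the type I receptor, rose by 2.61 (adjusted p = 8.62e-05), also from within that range, and Socs1, an inhibitor of the Jak kinases, by 0.55 (0.0118).

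In the whole signalling list, 10 of 22 measured genes were higher (45.5%) and 2 lower (9.09%), against 14.2% and 12.7% of all genes (median difference 0.14, against -0.05). Without wild-type replicate 1 or 2 the higher count was 6 each, against 1649 and 1531 over all genes tested. The 2 lower genes, Tyk2 and Stat2, became 1 when any sample was left out.

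**Figure D3:**
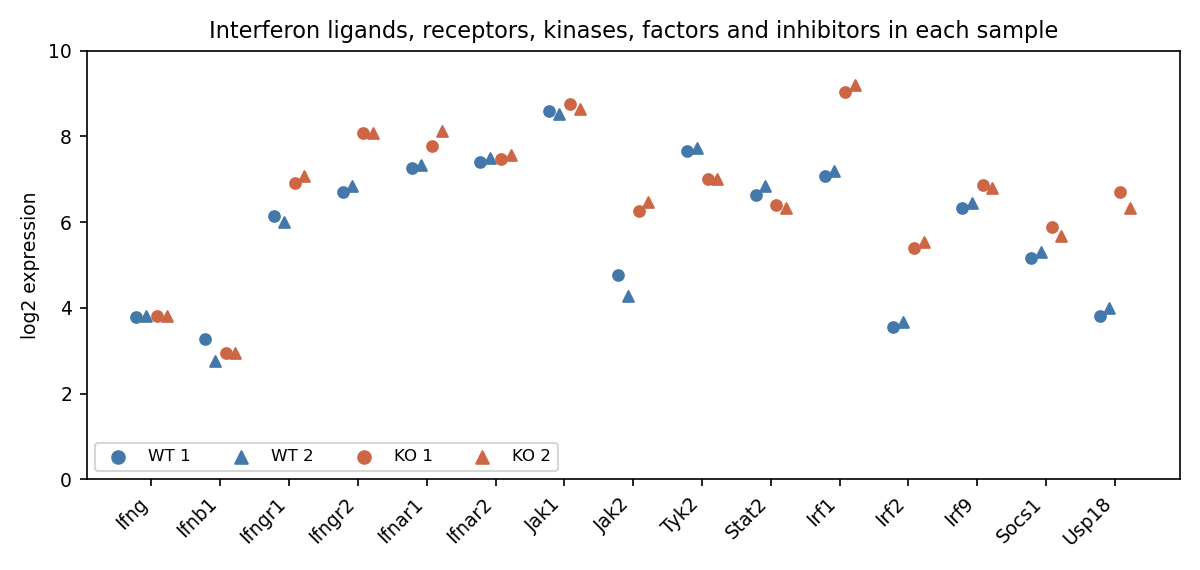
Log2 expression of 15 interferon ligand, receptor, kinase, factor and inhibitor genes in the 4 samples (blue, wild type; orange, knockout; circles and triangles, replicates 1 and 2). The ligands Ifng and Ifnb1 lie below 4 in every sample, while Ifngr1, Ifngr2, Jak2, Irf1, Irf2 and Usp18 are higher in both knockout samples than in both wild-type samples.

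Other targets of the same pathway were read beside the members. Of 22 interferon gamma targets and antigen presentation genes, 12 were higher (54.5%) and 2 lower (9.09%), against 14.2% and 12.7% of all genes (median difference 0.38, against -0.05). In the wild type 8 of the 22 were within the range of the olfactory receptor genes, Psmb8 among them, so their differences start from a level not told apart from silent genes. The immunoproteasome gene Psmb8 rose by 2.84 and Psmb10 by 1.61; the peptide transporter genes Tap1 and Tap2 rose by 2.36 and 1.73, and Tapbp, their partner tapasin, by 1.89, each with a limma adjusted p of at most 1.31e-04. Ciita, the switch for class II genes, differed by -0.05 (adjusted p = 0.747), and the chemokine gene Cxcl9 by -0.15 (0.328), and both stayed within that range in all 4 samples. The lower genes were Icam1, an adhesion molecule (-0.93, adjusted p = 6.66e-04), and Wars (-0.29, 0.0490); without any 1 of the samples the lower count was 1.

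Type I interferon-stimulated genes had 12 of 27 higher (44.4%) and 3 lower (11.1%), against 14.2% and 12.7% of all genes (median difference 0.25, against -0.05). In the wild type 10 of the 27 were within the range of the olfactory receptor genes, Ifit3 and Rtp4 among them. Oasl2 rose by 3.67, Ifi35 by 1.51, the antiviral gene Ifit3 by 1.41, Rtp4 by 1.49 and the nucleic acid sensor gene Zbp1 by 1.44. Rtp4 lost its call without wild-type replicate 1 (adjusted p = 0.0781) or 2 (0.126), its rise was 0.99 without knockout replicate 1, and Zbp1 lost its call without wild-type replicate 1 (0.0695). Mx1 (difference -0.13, adjusted p = 0.339) and Rsad2 (-0.03, 0.876), classic type I targets, did not pass and stayed within that range in all 4 samples. The share of lower genes is near that of all genes. Oas2 (-0.49, 0.00809), Oasl1 (-0.42, 0.0232) and Trim25 (-0.38, 0.0293) fell. A set listed with both Oas1a and Oas1g, outside this count, differed by -0.76 (adjusted p = 0.00472 over every annotated probe set). The set of Oas1a alone differed by -0.45 (0.0666) and did not pass. The lower count was 1 without wild-type replicate 2 or knockout replicate 2; subtracting array medians gave 7.

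The machinery that guides these GTPases to vacuoles was called about as often as genes at large. Of 14 autophagy conjugation and vacuole targeting genes, 2 were higher and 2 lower (14.3% each, median difference 0.05, against 14.2% and 12.7% of all genes). Trim21, a ubiquitin ligase recruited to coated vacuoles, rose from 4.76 ± 0.05 to 6.23 ± 0.12 (difference 1.47, SE 0.10, adjusted p = 1.78e-04). Gabarapl1, an autophagy modifier, rose by 0.85 (adjusted p = 0.00355; 0.0521 without wild-type replicate 2, when 1 gene was higher). Atg16l1, part of the conjugation complex needed for the GTPases to load, fell from 7.95 and 8.06 to 6.97 and 7.18 (difference -0.93, SE 0.11, adjusted p = 0.00135). Ulk1, a starter kinase of autophagy, fell by 0.48 (adjusted p = 0.0223), a call lost without wild-type replicate 1 (0.109), wild-type replicate 2 (0.132) or knockout replicate 2 (0.0959), when 1 gene was lower. Atg5 (0.16), Atg7 (0.01) and Atg3 (-0.09) did not pass (adjusted p = 0.264, 0.969 and 0.591).

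Genes next to the members were read from the order of genes in the GRCm38.p6 annotation, counting as neighbours those with a probe set of their own; their counts stand beside 14.2% higher and 12.7% lower over all genes. Around Irgm1, 0 of the 20 nearest tested genes were higher and 2 were lower, with a median difference of -0.10; the nearest on each side, Trim7 and Gm5431, differed by -0.07 and -0.15 (adjusted p = 0.649 and 0.593). The lower ones were Sgcd and the small RNA gene Snord95; 1 was lower without wild-type replicate 1, leaving out knockout replicate 1 made 1 higher, and subtracting array medians made 9 lower. Much of this stretch was dim. Olfr1392 to Olfr1396 belong to the olfactory receptor reference itself, but not all of them were dim. Olfr1394 lay above the range of that reference, with group means of 5.08 in KAP_WT and 4.80 in KAP_KO. Olfr1395 lay just above it, at 4.17 and 4.13. Group means of Trim7, Sgcd, Timd4, Havcr1, Timd2, Dppa1, BC053393, Gm5431 and Gm12185 lay within the range of that reference. The same stretch also holds genes read only by sets with several symbols, 8 sets in all. Against 13.3% higher and 11.7% lower over every annotated probe set, 0 of the 8 were lower and 3 were higher. These were the pair of Tgtp1 and Tgtp2 sets, with 2 tested genes between them and Irgm1 and differences of 0.96 and 0.98, and a set listed with both Psme2b, in this stretch, and Psme2 (2.23, adjusted p = 4.04e-05). The set listed with Ifi47, a further GTPase of the family, and Olfr56 differed by 0.11 (adjusted p = 0.530). Around Irgm2 and Igtp, 3 were higher (Hand1, Galnt10 and Mfap3) and 3 lower (Mrpl22, Cnot8 and Zfp692), the lower count was 0 without wild-type replicate 1 or 2, and 9 were lower with array medians subtracted. These shares, 15.0% each, are about those of all genes. Next to the locus on the side away from Gm12250, Zfp692 fell by 0.40 (adjusted p = 0.0161; 0.0804, 0.0828 and 0.0686 without wild-type replicate 1, wild-type replicate 2 and knockout replicate 2). Around Iigp1, 4 were higher (Chsy3, Fbn2, Smim3 and Dctn4) and 1, Tcof1, lower (2 and 0 without wild-type replicate 2, and 0 lower without knockout replicate 2); its nearest neighbours Gm4841 and BC023105 differed by 0.13 and -0.08 and did not pass (adjusted p = 0.545 and 0.633).

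**Figure D4:**
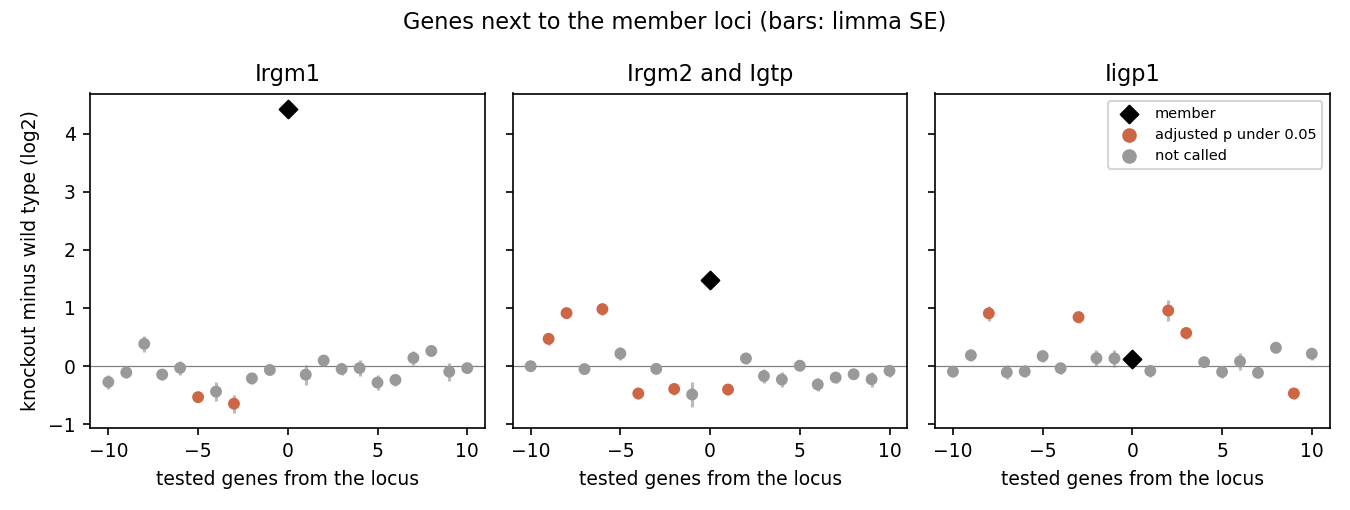
Knockout minus wild-type difference on the log2 scale for the 10 nearest tested genes with a probe set of their own on each side of each member locus, by gene order; black diamonds are the members, orange points genes with an adjusted p under 0.05, and bars limma standard errors. Irgm1 at 4.43 stands among plotted neighbours between -0.65 and 0.38, many of them within the range of the olfactory receptor genes. The nearby Tgtp1 and Tgtp2 sets, at 0.96 and 0.98, carry several symbols and are not plotted.

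Likeness to Irgm1 was measured by the root-mean-square difference over the 4 samples of log2 values centred on each gene's own mean. The genes most like it were Cthrc1 (0.15), Pdlim3 (0.20), Pramel20 (0.25), Tmem92 (0.26) and Tagln (0.29). Tagln is a contractile gene that is also on the list of fibroblast markers. By Pearson correlation over the same 4 samples the 5 leading genes were others, and 753 genes had r over 0.99. With 4 samples in 2 groups this likeness carries little information.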

How the data were processed

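Total RNA of the 4 samples was read on Affymetrix Mouse Gene ST 1.1 arrays. The deposited values are on a log2 scale, and the submitters' processing notes name affy and RMA; versions and settings are not given in the sources used here. RMA models background, which compresses differences among dim probe sets. The number of arrays, 2 per group, limits the precision, and signal over background is unknown. Labels call the samples biological replicates.

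Of 35556 probe sets, 21218 were annotated with 1 gene symbol and 1881 with several; 12457 had none and are unnamed here. For each gene the brightest single-symbol probe set, by its mean of the 4 samples, stood for the gene, giving 18820 genes with no filter on dim ones. The test was limma 3.58.1 in R 4.3.3 (lmFit, eBayes), knockout minus wild type, two-sided, with Benjamini-Hochberg adjustment over all genes and a threshold of 0.05; intervals are 95%. Probe sets with several symbols were tested in a second fit over all 23099 annotated sets, added after seeing the data. The fit was tested on simulated data. Promoters came from RefSeq, GRCm38.p6.

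The members and lists were chosen with earlier results of these data known. Named genes are Trim28, all members, all measured genes of the other-GTPase list, 10 signalling genes fixed by name (1 is not reported here), up to 5 per other list with the largest difference past the threshold, the 5 most like Irgm1 and the nearest neighbours; any other gene was picked after its values were seen.

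The alternatives were a replicate block, a trended or robust prior, filters on dim genes, quantile normalization and subtraction of array medians over the tested genes. Others were averaging the probe sets of a gene, a 2-fold limit, 5 neighbours a side, Pearson correlation as likeness, and each sample left out.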

Additional observations from a re-analysis of the deposited data

How the results depend on the processing

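The member values kept their sign in the alternatives run, except Iigp1, whose difference was -0.051 with array medians subtracted and 0.17 after quantile normalization (0.08 to 0.15 with 1 sample left out). Irgm1 was 4.26 with array medians subtracted and 4.35 to 4.51 with 1 sample left out; the shared Irgm2 and Igtp set was 1.31 with array medians subtracted, 1.38 after quantile normalization and 1.45 to 1.51 with 1 sample left out. Subtracting array medians moved the median difference of all genes from -0.05 to -0.22, and the calls to 2065 higher and 6392 lower; 1 other GTPase, 7 type I genes, 7 immune markers, and 9 neighbours each of Irgm1 and of Irgm2 and Igtp were then lower. Requiring at least 2-fold left 835 higher and 274 lower genes; higher were 5 signalling genes, 6 interferon gamma targets, 7 type I genes, 1 vacuole gene and 1 endothelial marker, lower were 2 pluripotency, 2 immune and 1 endothelial marker, and 0 neighbours at any of the 3 loci and 0 genes lower in the signalling, target, type I and vacuole lists were called. Keeping only genes at or above the median level left 9410 genes, of which 1906 were higher and 2028 lower. Higher were 1 of 1 guanylate-binding protein, 6 of 15 signalling, 6 of 10 target, 1 of 8 type I and 4 of 13 vacuole genes. Also higher were 8 of 9 fibroblast markers, 0 of 2 endothelial markers and 2 of 7 neighbours of Iigp1. Lower were 1 of 8 type I genes, 2 of 2 immune markers and 1 of 4 neighbours of Irgm1. With the lower-quartile filter 4 vacuole genes were higher and 1 neighbour of Irgm1 lower; 4 vacuole genes were also higher with a trended prior or quantile normalization, where 1 signalling gene and 1 interferon gamma target, respectively, were lower; the cause was not tested. Among 5 neighbours a side, 0 were higher at Irgm2 and Igtp and 0 lower at Iigp1. The 5 genes most like Irgm1 shared 0 with the 5 by Pearson correlation.

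With 1 sample left out, 1531 to 2405 genes were higher and 899 to 1945 lower. The counts were 6 to 10 higher and 1 lower for signalling, 1 lower for the targets, 1 to 2 lower for type I, 1 to 2 higher and 1 to 2 lower for the vacuole list, 1 to 8 lower for pluripotency, 0 to 1 higher and 2 to 3 lower for immune and 2 to 4 higher for endothelial markers. For neighbours they were 0 to 1 higher and 1 to 2 lower at Irgm1, 0 to 2 lower at Irgm2 and Igtp, and 2 to 4 higher and 0 to 1 lower at Iigp1.

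Replicate numbers are shared by the groups, but nothing in the labels pairs them; the correlation of same-numbered deviations was 0.15 over 2 pairs. With a replicate block 2690 genes were higher and 2403 lower, and 1 gene was lower in each of the other-GTPase, signalling and interferon gamma target lists.

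Uncalled small differences changed sign: with array medians subtracted, Gm4951 was -0.0332, Gm4841 -0.0375, Irgq -0.009, Ifng -0.158 and Jak1 -0.0187. With 1 sample left out, Gm5431 ran from -0.417 to 0.121, Gm4951 ran from -0.0483 to 0.321, Gm4841 ran from -0.0113 to 0.275, Irgc1 ran from -0.257 to 0.0205, Irgq ran from -0.0264 to 0.347, Ifng ran from -0.0008 to 0.0234, Ifnb1 ran from -0.337 to 0.18 and BC023105 ran from -0.192 to 0.0266.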
